A study of Macaca mulatta with 304 samples.

Results

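Transcripts of 10 genes of the transforming growth factor beta (TGF-beta) pathway were followed in the blood of rhesus macaques (Macaca mulatta) after irradiation of the upper thorax. The genes were taken by symbol from the count table (TGFB1, LTBP1, THBS1, TGFBR1, TGFBR2, ENG, SMAD3, SMAD7, SKIL and TGFBI), which is 10 of its 21070 genes. All 10 were also among the 13751 genes tested, which required 3 or more counts in 80% or more of the samples. Whole blood RNA was sequenced in 304 samples from 28 animals (14 females and 14 males), with 24 control samples taken 2 days ahead of irradiation and 280 taken on Day 3 to 270. The lower dose (LD) group received 9.8 Gy (12 animals with 151 samples after irradiation), and animals of the higher dose (HD) received 10.7 Gy (16 animals with 129 such samples). The animals were healthy adults of the Chinese sub-strain, 3 to 5 years old, and no sham group was analysed here, so each irradiated sample was set against the control sample of the same animal, at hand for 24 of 28 animals. Pain relief was given to all animals for some weeks after irradiation, and dexamethasone to those with fast breathing, but which animals received it is not given in the sources used here. Blood was not sorted, so in every result below a larger share of a cell type and more RNA per cell cannot be told apart.

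TGF-beta is secreted in a latent form that is held to the matrix by latent binding proteins such as the product of LTBP1, and it has to be released before it can signal. Thrombospondin 1 (THBS1), an abundant protein of platelet granules, is one of its activators. The active ligand binds the type II receptor (TGFBR2), which phosphorylates the type I receptor (TGFBR1), and the complex phosphorylates SMAD2 and SMAD3, while SMAD7 and SKIL restrain the signal. Endoglin (ENG) is a co-receptor best known from endothelium, and TGFBI encodes a matrix protein named for its induction by TGF-beta. Platelets hold a large store of TGF-beta1, and the pathway is known for its part in fibrosis of irradiated lung.

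Facts of the whole series bear on these genes in the following ways. The depth was 2840219 to 23638161 counted reads, with a median of 8227563. The library names carry numbers in 3 ranges, called A, B and C here, whose meaning is not given in the sources used here. Range A held 20 of the 24 control samples and range C the other 4, whereas all 95 samples taken after Day 21 to Day 90 and all 53 taken after Day 90 were of ranges B and C, so later time and library range are largely confounded. HD animals made up only 10 of the 53 samples after Day 90, and 2 of them had both a control and such samples. The HD library of animal B2007 on Day 40 stood apart from the others, and the LD library of animal B1502 on Day 150 was the shallowest; without either of them the same number of calls was made on the single days (23).

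Levels in blood before irradiation were compared between genes as scaled counts (CPM, in edgeR's unit) per kilobase of exon (CPM per kb). TGFB1, which encodes the ligand TGF-beta1, had by far the highest median of the 24 control samples, 262 CPM per kb, and exceeded TGFBR2 in 24 of 24 of them. TGFBR2 had 64.7 and THBS1 54.9 CPM per kb, followed by SMAD3 with 24.7 and TGFBR1 with 23.9. SMAD7 (15.7), TGFBI (14.2), SKIL (7.16) and LTBP1 (5.88) lay below these, and ENG was lowest with 0.792 CPM per kb. Several neighbours in this order were not separated, since the gene with the higher median was the higher one in only 14 of 24 control samples for TGFBR2 and THBS1, 14 for SMAD3 and TGFBR1, and 12 each for SMAD7 and TGFBI and for SKIL and LTBP1. ENG shares 298 of its 3100 exon bases with LOC106993596 on the opposite strand, and whether the counting used strand is not stated, so its exact level is uncertain. LTBP1, the next gene in the order, exceeded ENG in 24 of 24 control samples.

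The sequences before the first base of LTBP1 and THBS1 are shown because these genes, which hold TGF-beta latent and release it, moved together across samples, and a stretch before SMAD7 because it carries the palindromic SMAD binding element. All were read from the RefSeq genome of build Mmul_10 and are printed 5′ to 3′ on the strand of the gene. Capitals mark the GC box GGGCGG (or CCGCCC, its reverse complement) in LTBP1 and THBS1, and GTCTAGAC in SMAD7.
LTBP1 chr13:75980725-75980974, minus strand: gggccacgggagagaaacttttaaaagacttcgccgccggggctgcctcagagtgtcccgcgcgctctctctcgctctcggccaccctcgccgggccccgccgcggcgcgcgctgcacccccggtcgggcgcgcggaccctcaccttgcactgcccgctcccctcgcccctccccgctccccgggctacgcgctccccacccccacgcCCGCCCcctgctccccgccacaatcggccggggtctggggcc
THBS1 chr7:15979599-15979848, plus strand: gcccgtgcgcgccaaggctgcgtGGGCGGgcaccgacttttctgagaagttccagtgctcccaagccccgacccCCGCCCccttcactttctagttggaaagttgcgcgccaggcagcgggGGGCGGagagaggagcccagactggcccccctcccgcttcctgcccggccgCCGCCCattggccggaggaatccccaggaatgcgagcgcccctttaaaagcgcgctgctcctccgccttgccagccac
SMAD7 chr18:33495398-33495497, plus strand: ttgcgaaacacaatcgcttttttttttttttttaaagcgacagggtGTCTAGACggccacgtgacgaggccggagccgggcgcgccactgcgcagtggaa
THBS1 held 4 GC boxes in its 250 bases and LTBP1 held 1, at 42 bases before its start. The GC box is common, as 43.7% of all windows of 250 bases before a gene start held one on either strand, and 6 of the 10 genes did. GTCTAGAC was found in 1.18% of windows of 2000 bases and before 1 of the 10 genes, SMAD7, where it begins 1421 bases before the start.

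At early time points (Day 3 to 21, counts of an animal summed) 1 of the 10 genes changed from control, TGFBI, and it rose. A gene was called changed at an adjusted p of at most 0.05 by edgeR's quasi-likelihood test with a fold change of at least 1.5, which 7.53% of all tested genes reached in this comparison. TGFBI had 26.4 CPM in the lowest, 43.3 in the median and 90.5 in the highest of 24 control samples, and 39.6, 84.3 and 159 CPM in the same animals at early time points. The groups overlapped, but each of the 24 animals was above its own control. The log2 fold change was 0.89 (standard error 0.07, adjusted p = 8.51e-11 by edgeR), a 1.85-fold increase, and it was 0.90 when only libraries of the same range as the control were used. Monocyte markers stood higher in the same samples, with a summed level of 2000.9 CPM in the median control and 2450.0 CPM at early time points, higher in 17 of 24 animals, and their part in the change was not tested.

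Smaller differences at early time points passed the adjusted p of edgeR without reaching the fold threshold for 6 further genes. That adjusted p alone was reached by 49.1% of all tested genes, so such differences were common. LTBP1 (log2 fold change 0.43, adjusted p = 0.00324), ENG (0.41, adjusted p = 0.0161) and SKIL (0.24, adjusted p = 0.0469 by edgeR) were on the higher side. SMAD3 (-0.24, adjusted p = 0.000319), SMAD7 (-0.20, adjusted p = 0.00334) and TGFBR2 (-0.16, adjusted p = 0.00426 by edgeR) were on the lower side. The mediator SMAD3, the inhibitor SMAD7 and the type II receptor were below control in 19, 18 and 21 of 24 animals. THBS1 (0.33, standard error 0.14), TGFB1 (-0.05, standard error 0.07) and TGFBR1 (0.06, standard error 0.08) did not pass the test. The median log2 fold change of the 10 genes was 0.15, beside -0.02 over all tested genes.

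**Figure D1:**
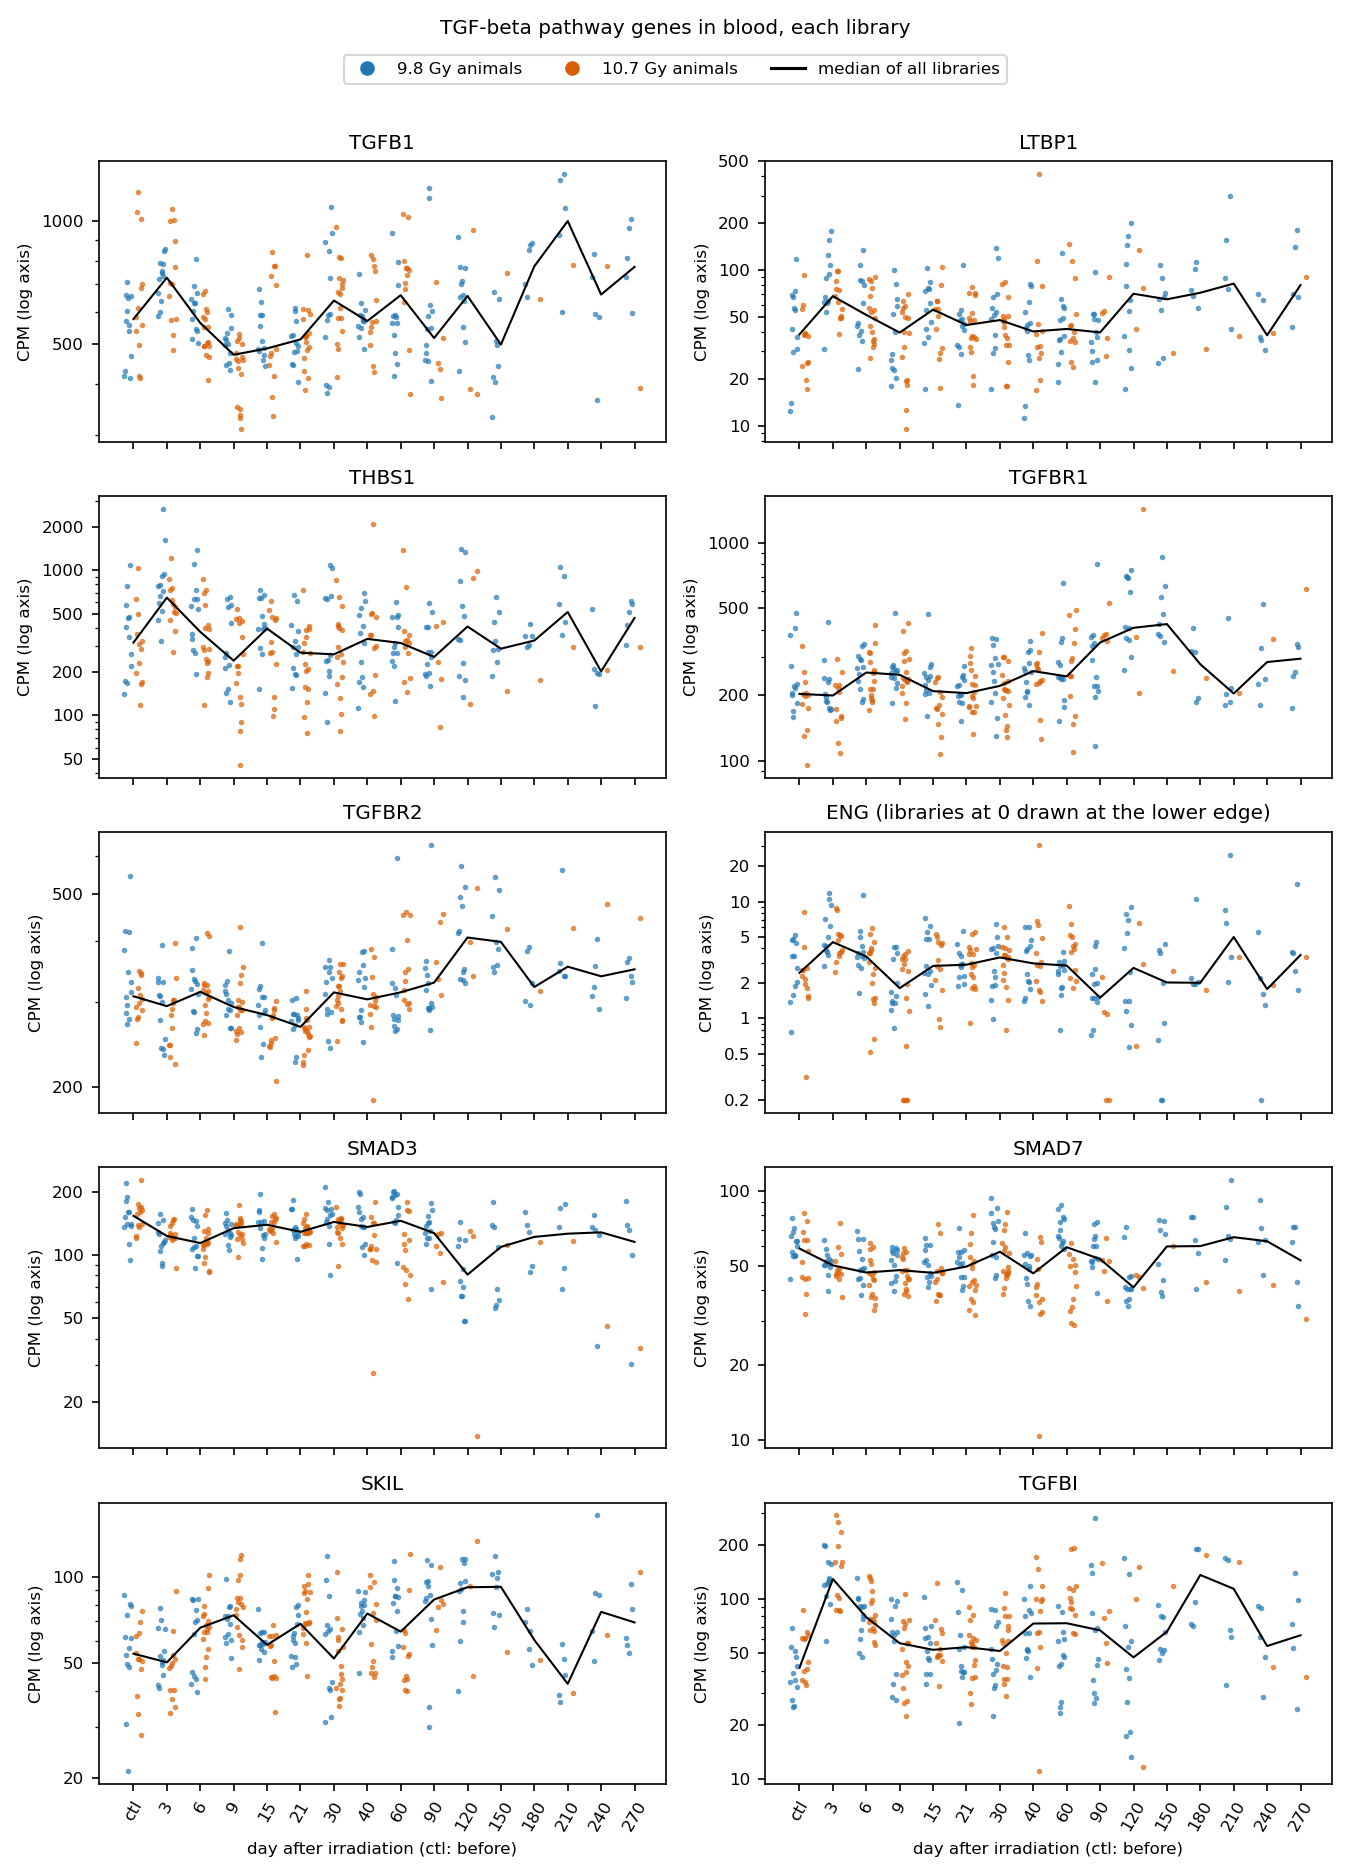
Level of each of the 10 genes by day, in CPM on a log axis, with the control drawn 2 days before irradiation first. Each point is a library, coloured by dose, and the line joins the medians; TGFBI, THBS1 and LTBP1 stand high on Day 3 and are lower again by Day 9, and TGFBR1 stands high on Day 120 and Day 150.

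Day 3, the first draw after irradiation, had the most calls of the early days, though not every early difference was largest then. On that day 4 of the 10 genes rose in 24 animals and 0 fell, while 11.5% of all tested genes were called and 6.89% rose. TGFBI went from 43.1 CPM in the median control sample (lowest 26.2, highest 89.9) to 134.5 CPM on Day 3 (lowest 61.05, highest 304). Every animal stood above its own control, though the highest controls overlapped the lowest Day 3 samples. This 3.12-fold increase (log2 fold change 1.64, standard error 0.08, adjusted p = 3.19e-16 by edgeR) was the largest of the 10 genes on any day.

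The genes that hold TGF-beta latent and release it rose with it. THBS1 had 122.7, 330.0 and 1128 CPM in the lowest, median and highest control sample and 282, 674 and 2740 CPM on Day 3, and was above control in 24 of 24 animals (log2 fold change 1.04, standard error 0.15, adjusted p = 8.01e-07 by edgeR). LTBP1 had 12.9, 40.1 and 121.9 CPM before irradiation and 32.2, 70.6 and 187 CPM on Day 3, and was above control in 22 of 24 animals (0.90, standard error 0.13, adjusted p = 8.93e-07 by edgeR). Both genes overlapped widely between the groups, and the spread between animals was wider than the change in their medians. The co-receptor ENG rose from 0.330, 2.55 and 8.49 CPM to 2.60, 4.67 and 12.4 CPM, above control in 23 of 24 animals (1.00, standard error 0.15, adjusted p = 2.35e-06 by edgeR).

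TGFB1 itself had a log2 fold change of 0.28 on Day 3 (adjusted p = 0.000503 by edgeR), which is below the fold threshold, with a median of 599 CPM before irradiation and 755 CPM on Day 3. The receptors were not part of this rise, as TGFBR1 was above control in 9 of 24 animals (log2 fold change -0.09, standard error 0.07), and TGFBR2 was below control in 20 of 24 animals. SMAD3 was below control in 21 of 24 animals (-0.31, adjusted p = 9.13e-05 by edgeR), without passing the fold threshold.

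Platelet and megakaryocyte markers, such as ITGA2B and ITGB3, moved with LTBP1, THBS1 and ENG on these days. Of the 18 tested markers 18 rose and 0 fell on Day 3, and their summed level had a median of 2221 CPM in control samples, 5398 CPM on Day 3 and 2233 CPM on Day 9. Of the 14 tested monocyte markers 10 rose on Day 3. Erythroid markers rose as well (13 of 14, with a summed level from a median of 6628 CPM in control to 10680.4 CPM), and 13 of 13 B cell markers fell. Across 256 irradiated samples of 24 animals, each taken as the difference from its own control, LTBP1 correlated with the platelet sum with a Pearson r of 0.87 and THBS1 with 0.81. ENG followed this sum less closely, with 0.56. Within libraries and controls of range A these were 0.86, 0.85 and 0.66. LTBP1 and THBS1 correlated with each other with 0.89 (0.95 within range A). Samples of 1 animal share its control, so these values describe the samples only. The part of platelet RNA in the Day 3 values was not tested.

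**Figure D2:**
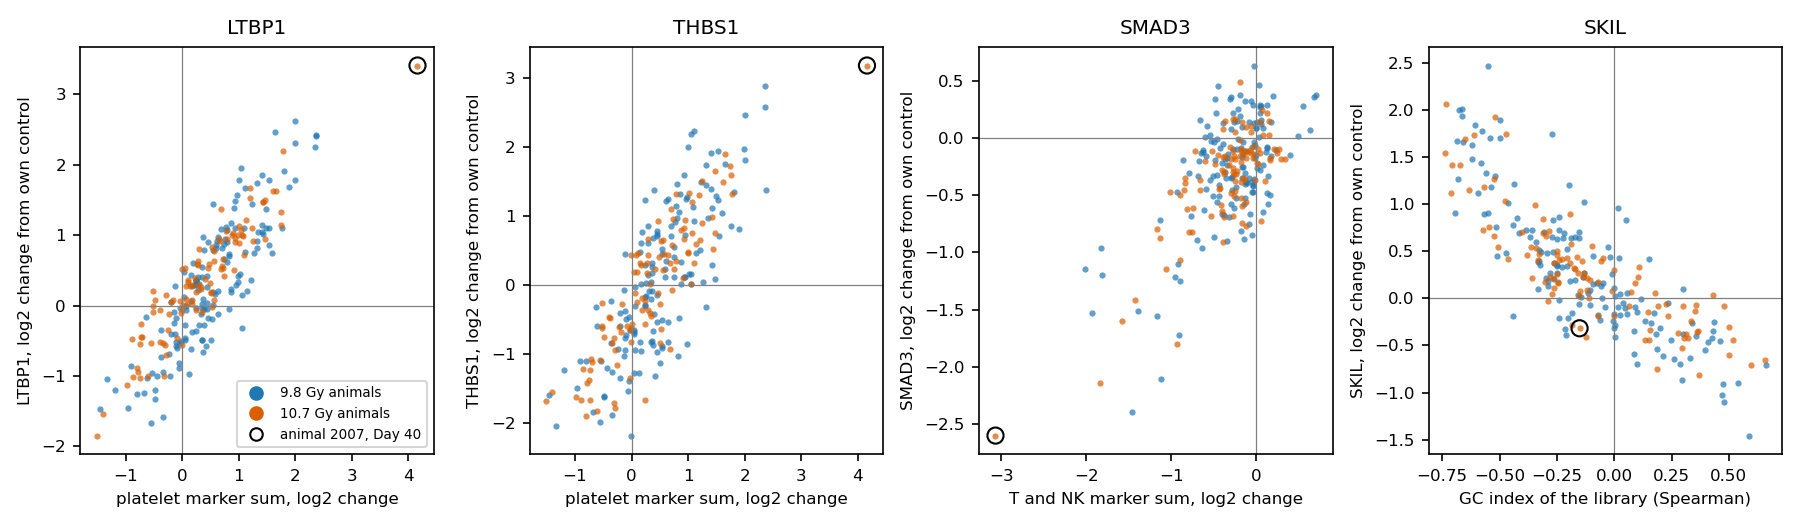
Change of LTBP1 and THBS1 (log2 CPM minus the animal's own control) against the change of the summed platelet markers, of SMAD3 against that of the T and NK cell markers, and of SKIL against the GC index of the library. Each point is an irradiated library of an animal with a control, coloured by dose, and the circled point is animal B2007 on Day 40; LTBP1 and THBS1 lie along a rising line with the platelet markers (Pearson r 0.87 and 0.81).

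By Day 9 the rise had gone back, and some genes stood below control. The Day 9 change from control was -0.38 for TGFB1 and -0.21 for LTBP1 on the log2 scale, the lowest of the 15 days for both, while TGFBI stayed above 0. The median of the 10 genes was -0.18, beside 0.0015 over all tested genes. The adjusted p without the fold threshold was passed by 5 of the 10, and the adjusted p by 6892 of 13751 tested genes. Set against Day 3 in the same 24 animals, a comparison added after the values had been seen, 5 of the 10 genes fell and 0 rose, with 13.3% of all tested genes called and 5.8% lower. TGFBI fell by 1.42 on the log2 scale and was lower than on Day 3 in 24 of 24 animals, with a median of 134.7 CPM on Day 3 and 57.1 CPM on Day 9. THBS1 fell by 1.55, ENG fell by 1.55 and LTBP1 fell by 1.11, lower in 23, 22 and 23 of 24 animals. TGFB1 fell by 0.67 on the log2 scale, from a median of 757 to 487 CPM, and was lower in 24 of 24 animals. Platelet markers moved the same way, with 18 of 18 lower on Day 9 than on Day 3. The GC index (the correlation, across genes, of a library's change from control with transcript GC content) shifted too. Its median was 0.10 on Day 3 and -0.29 on Day 9, and TGFB1 correlated with it with a Pearson r of 0.79 over all irradiated samples. This comparison was not repeated with GC correction, and the part of GC content in the fall of TGFB1 was not tested. ENG had a count of 0 in some Day 9 libraries, and its low counts limit the precision of its fold changes.

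On Day 6 only TGFBI was called (log2 fold change 0.92, 24 of 24 animals above control, 11.5% of all tested genes called). On Day 9, 15, 21 and 30 no gene of the 10 was called by edgeR, when 7.58%, 6.01%, 10.4% and 5.9% of all tested genes were. At an unadjusted p of 0.05, and whatever the fold, 7, 6, 7 and 0 of the 10 passed on these days, beside 56.5%, 48.6%, 57.8% and 36.8% of all tested genes.

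Between Day 21 and Day 90 (medium time points) TGFBI was again the 1 gene of 10 that changed, and 5.75% of all tested genes did. It had 26.4, 43.4 and 90.7 CPM in the lowest, median and highest of 24 control samples and 34.5, 77.1 and 144 CPM at medium time points. The groups overlapped, and 21 of 24 animals were above their control. The log2 fold change was 0.66 (standard error 0.10, adjusted p = 5.54e-06 by edgeR). In the 4 animals whose libraries were all of range C it was 0.29 and not called. With the range as a covariate in 1 fit of all samples it was 0.87. On the single days it was called on Day 40 (0.73), Day 60 (0.65) and Day 90 (0.73), where 6.92%, 4.23% and 7.06% of all tested genes were called. TGFBR1 (0.23), SKIL (0.29) and SMAD3 (-0.21) passed the adjusted p at medium time points, as did 45.3% of all tested genes, and not the fold threshold.

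**Figure D3:**
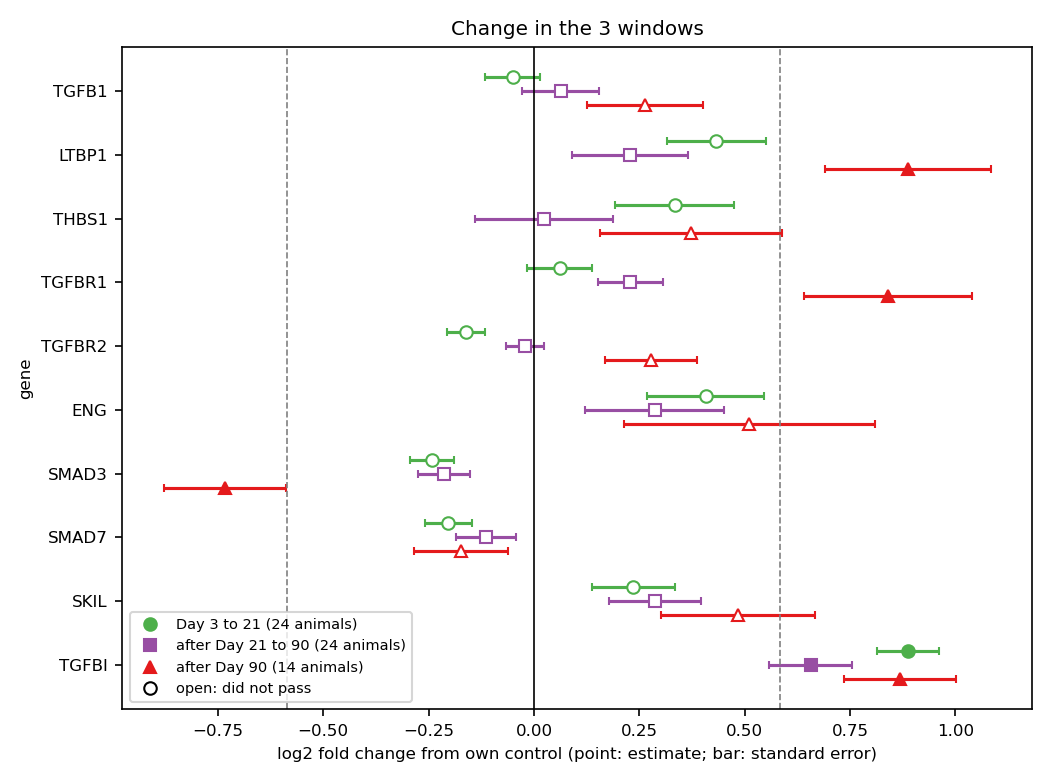
Log2 fold change from control of the 10 genes at early, medium and late time points, with bars of 1 standard error, filled points for genes past both thresholds and dashed lines at a fold of 1.5. TGFBI is filled in all 3 groups (0.89, 0.66 and 0.87), and LTBP1, TGFBR1 and SMAD3 only at late time points.

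At late time points (after Day 90, 14 animals) 3 of the 10 genes rose and 1 fell, beside 32.5% of all tested genes called (14% higher and 18.5% lower), so the share of the 10 is close to that of all genes. The genes that rose were TGFBI, LTBP1 and TGFBR1, and SMAD3 fell. The median log2 fold change of the 10 was 0.43, while that of all tested genes was -0.13. Scaling by TMM and by DESeq2 moved the latter to -0.03 and -0.01, and the late calls over all genes from 1919 higher and 2548 lower to 2270 higher and 1887 lower with TMM, and 4 of the 10 genes were called with TMM and 6 with DESeq2.

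TGFBR1, the type I receptor kinase, had 94.8, 208 and 471 CPM in the lowest, median and highest control sample of these animals and 258, 391 and 684 CPM at late time points. Every late value lay above the median control, while the highest controls overlapped with them, and 12 of 14 animals were above their control. The log2 fold change was 0.84 (standard error 0.20, adjusted p = 0.0017 by edgeR). TGFBR2, the partner receptor, had a median of 317 CPM before irradiation and 413 CPM at late time points, with a log2 fold change of 0.28 that passed the adjusted p and not the fold threshold.

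SMAD3 moved the other way, from 92.9, 154 and 224 CPM to 61.04, 91.3 and 143 CPM, and was below control in 13 of 14 animals (log2 fold change -0.73, standard error 0.15, adjusted p = 0.000414 by edgeR). Every late value lay below the median control, although the groups overlapped. Its log2 fold change was below 0 on each of the 15 days, although the fold threshold was passed only on Day 120 and Day 150. T and NK cell markers fell along with it, with 10 of 19 lower and 0 higher, and a summed level with a median of 4300.4 CPM in control and 2266 CPM at late time points. Over the 256 irradiated samples SMAD3 followed this sum with a Pearson r of 0.69 (Spearman rho 0.48), but with an r of 0.29 within range A. Its r was 0.63 with the B cell sum and -0.62 with the neutrophil sum, so the T and NK cell markers were not alone in this, and TGFBR1 ran against the T and NK cell sum with -0.69 (-0.70 within range A). TGFBR2 followed the neutrophil sum with an r of 0.76 (0.79 within range A) and the monocyte sum with 0.64. TGFBR1 followed the neutrophil sum with 0.54. The part of cell composition in the values of SMAD3 and of both receptors was not tested.

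LTBP1 had 12.3, 38.9 and 115.7 CPM in control and 22.9, 71.9 and 163 CPM at late time points, above control in 12 of 14 animals (log2 fold change 0.89, standard error 0.20, adjusted p = 0.00102 by edgeR). TGFBI had 24.9, 36.5 and 68.4 CPM in control and 26.4, 78.7 and 116.6 CPM at late time points, above control in 14 of 14 animals (0.87, standard error 0.13, adjusted p = 4.73e-05 by edgeR). Both genes overlapped between the groups. Platelet markers (16 of 18 higher), neutrophil markers (13 of 16 higher) and monocyte markers (6 of 14 higher, 2 lower) also stood higher at late time points, and 13 of 13 B cell markers were lower. TGFB1 (0.26), THBS1 (0.37), ENG (0.51) and SMAD7 (-0.17) did not pass the test, and SKIL (0.48) passed the adjusted p only, which 55.3% of all tested genes did.

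Control and late libraries of 1 range were at hand for too few animals to be fitted alone. With the range as a covariate in 1 fit of all samples, the late log2 fold changes were 0.97 for LTBP1, 0.87 for TGFBR1, 1.12 for TGFBI and -0.85 for SMAD3, and THBS1 (0.71) and ENG (0.82) were called as well. That fit did not add up the draws of 1 animal, so repeated draws counted as replicates there, and its calls carry less weight. Leaving out each of the 14 animals in turn kept the calls of LTBP1, TGFBR1, TGFBI and SMAD3 each time. In the 6 animals followed to Day 270 alone, TGFBR1 (0.39) and SMAD3 (-0.58) were not called, and LTBP1 (0.65) and TGFBI (1.05) were.

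**Figure D4:**
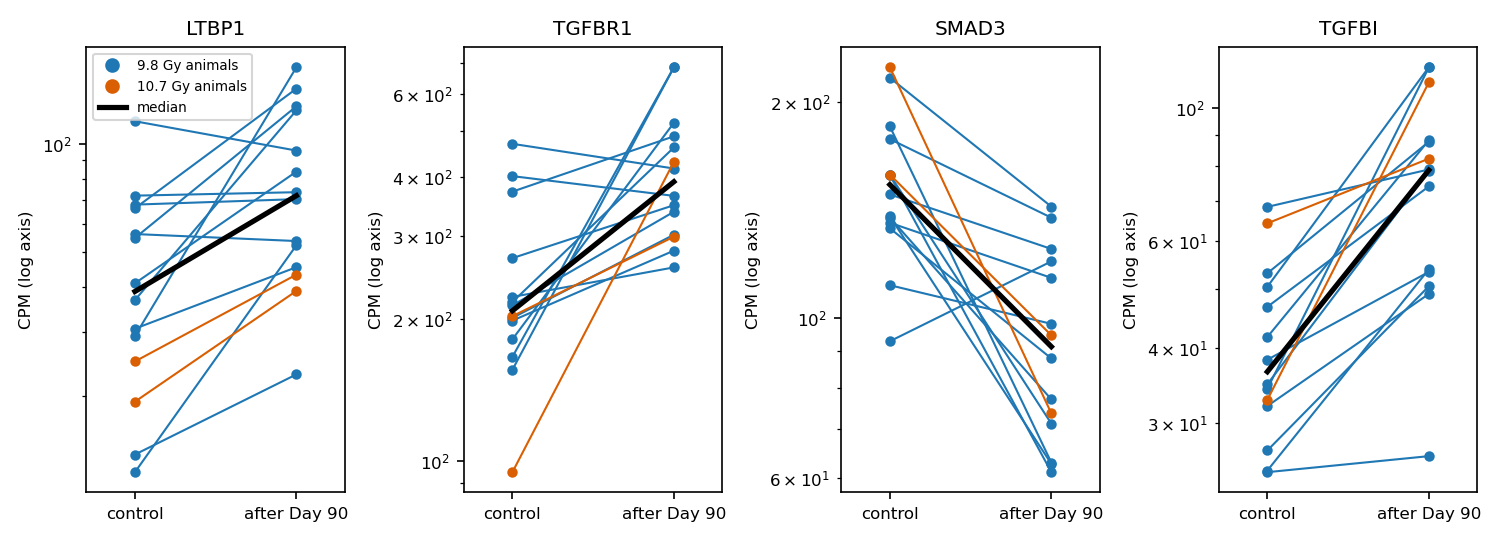
CPM of the genes called at late time points in the control sample and in the late samples of the same 14 animals, on a log axis, joined by a line for each animal, coloured by dose, with the medians in black. TGFBI rises in 14 of 14 animals, LTBP1 and TGFBR1 in 12 each, and SMAD3 falls in 13.

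The genes called late varied by day, with fewer animals on the later days, and differences between these days were not tested. On Day 120 (12 animals, 31.8% of all tested genes called) TGFBR1 went from a median of 209 to 404 CPM (log2 fold change 1.03, adjusted p = 0.00229 by edgeR) and was above control in 10 of 12 animals. SMAD3 went from a median of 154 to 79.8 CPM and was below control in 12 of 12 (-0.88, adjusted p = 0.00039 by edgeR). LTBP1 (0.76) and the inhibitor SKIL (0.65) were called as well. On Day 150 (9 animals, 31.5% of all tested genes called) TGFBR1 was above control in 9 of 9 animals (0.97) and SMAD3 below control in 9 of 9 (-0.73), with SKIL (0.75) and TGFBI (0.80) also called.

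In the 6 animals drawn on Day 180 and Day 210, TGFBI and LTBP1 were called on both days, and TGFBR1 and SMAD3 on neither. On Day 180, when 18.7% of all tested genes were called, TGFBI rose from a median of 40.3 CPM (28.5 to 72.1) to 142 CPM (73.1 to 198.8), and every Day 180 sample lay above every control (log2 fold change 1.57, adjusted p = 0.00157 by edgeR). LTBP1 was called as well (0.65), but its value without animal B1503 was 0.57 and not called. On Day 210, when 29.8% were called and 12.8% rose, ENG (1.23), TGFBI (1.18), LTBP1 (1.01), TGFB1 (0.78) and THBS1 (0.75) rose. TGFB1, the ligand gene, had 405, 553 and 647 CPM in control and 589, 981 and 1280.2 CPM on Day 210, above control in 6 of 6 animals, which was its only call on any day. ENG was not called without animal B1503 (0.97, adjusted p = 0.0757 by edgeR), and THBS1 was not called without animal B1004, B1503 or B2502 (0.62, 0.61 and 0.63). TGFBR1 had a log2 fold change of -0.05 on Day 210 with 2 of 6 animals above control.

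On Day 240 and Day 270 none of the 10 genes was called by edgeR, when 6.76% and 0.00727% of all tested genes were, and 2 and 3 of the 10 had an unadjusted p under 0.05, as had 27.9% and 29.5% of all tested genes. The count of Day 270 differed between the fits. Over all genes 1 was called there by edgeR, 2383 by DESeq2 and 4439 with the range as a covariate in 1 fit of all samples (930, 2189 and 3451 on Day 240). In log2 CPM the Day 270 libraries of animals B1503 and B2502 correlated with the median library with an r of 0.89 and 0.90 (lowest of all libraries 0.86). The cause of the low count by edgeR was not tested. The fit with the range took every draw of every day as its own sample, so its counts are not like for like with the main test. DESeq2 called SKIL on Day 240 (0.71) and LTBP1 on Day 270 (1.17), and the fit with the range called SMAD3 on Day 240 (-0.87) and LTBP1 (1.21), ENG (1.05), SMAD3 (-0.88) and TGFBI (0.69) on Day 270. Over the 15 days 23 of 150 tests of a gene and a day were called by edgeR, 21 higher and 2 lower, beside 12.6% of such tests over all genes. TGFBR2 and SMAD7 were the genes called on no day. The log2 fold change of TGFBI was above 0 on all 15 days.

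The difference between late and early time points was tested directly in the 16 animals with both, which include 2 without a control. TGFBR1 was the 1 gene of 10 that changed, and 32.2% of all tested genes did. It had 165, 216 and 373 CPM at early and 225.9, 380 and 1363 CPM at late time points, higher in 15 of 16 animals (log2 fold change 0.84, standard error 0.14, adjusted p = 3.16e-05 by edgeR). TGFBR2 (0.48) was higher at late time points in 16 of 16 animals, and with LTBP1 (0.44), SMAD3 (-0.56), TGFB1 (0.24) and SKIL (0.26) it passed the adjusted p (69.7% of all tested genes) and not the fold threshold. TGFBI did not pass this test (-0.09, standard error 0.19), with 8 of 16 animals higher.

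The change from control was compared between the doses at early time points and on Day 30 and 40, and none of the 10 genes was called in these tests. All 60 LD libraries of early time points and all 12 LD controls were of range A. The 8 early libraries of range B, the 24 of range C and the 4 controls of range C were all HD, so dose and range are partly confounded here. At early time points the difference of HD minus LD ranged from -0.27 for TGFB1 (standard error 0.12) to 0.21 for TGFBR1 (standard error 0.15) on the log2 scale, the smallest adjusted p was 0.86 by edgeR, and 1 of the 10 had an unadjusted p under 0.05. For TGFBI the difference was -0.18 (standard error 0.14). On Day 30 and 40 the differences ranged from -0.24 to 0.38 and none had an unadjusted p under 0.05. Over all tested genes 0% and 0.0509% were called in these tests, and 5.53% and 9.21% had an unadjusted p under 0.05.

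On Day 60 the change from control differed between the doses for 2 of the 10 genes, in a test added after the values had been seen (9 HD and 12 LD animals), and 23.1% of all tested genes were called, so the share of the 10 is close to that of all genes. TGFBI had 33.2, 44.7 and 86.5 CPM in the lowest, median and highest control of these HD animals and 64.5, 100.9 and 191.5 CPM on Day 60, above control in 9 of 9. In the LD animals it had 25.2, 36.99 and 69.4 CPM in control and 23.1, 48.3 and 91.3 CPM on Day 60, above control in 8 of 12. The rise was larger in HD by 0.80 on the log2 scale (standard error 0.22, adjusted p = 0.00922 by edgeR). SMAD3 went from a median of 139.9 to 105.7 CPM in HD animals, below control in 8 of 9, and from 145.7 to 177.1 CPM in LD animals, above control in 8 of 12. Its difference of HD minus LD was -0.64 (standard error 0.16, adjusted p = 0.00452 by edgeR). TGFBR2 (0.43, adjusted p = 0.00847 by edgeR) passed the adjusted p and not the fold threshold, and ENG (1.07, standard error 0.43) and SMAD7 (-0.47, standard error 0.19) did not pass the test.

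All 12 HD libraries of Day 60 were of range C, and of the LD libraries 8 were of range C and 4 of range B. With Day 60 libraries of range C and controls of range A alone (7 HD and 8 LD animals) the differences were 0.87 for TGFBI and -0.63 for SMAD3, both called, and ENG (1.47) was called as well. SMAD3 was not called with TMM (-0.54), DESeq2 (-0.53) or GC correction (-0.56). Other genes were called in its place, ENG with TMM (1.17) and DESeq2 (1.22) and TGFBR1 with GC correction (0.81), while TGFBI was called with each of them. Monocyte markers moved with the dose on this day, with a summed level above control in 9 of 9 HD and 4 of 12 LD animals, as did neutrophil markers (9 of 9 and 1 of 12), while T and NK cell markers were above control in 1 of 9 and 3 of 12, and the part of cell composition was not tested.

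Between males and females 0 of the 10 were called by edgeR at early and medium time points, and 0% of all tested genes were called. An unadjusted p under 0.05 was reached by 0 of the 10 in both tests, beside 0.894% and 3.65% of all tested genes. The standard errors leave room for differences of the size of the smaller changes from control.

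GC content moved with some of the genes. SKIL, with 33.5% GC in its exons, correlated with the GC index of the libraries (the correlation, across genes, of a library's change with transcript GC content) with a Pearson r of -0.83, and TGFB1, with 66.5% GC, with 0.79. After a correction for GC content, added after the values had been seen, SKIL had a log2 fold change of 0.28 on Day 120 and on Day 150 and was no longer called. The late value of SMAD3 became -0.53 and that of TGFB1 on Day 210 became 0.57, neither of them called, whereas TGFBI, LTBP1 and TGFBR1 kept their late calls and ENG gained one (0.70).

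The genes whose changes ran most like those of each of the 10, over the 256 irradiated samples, were named by the highest Pearson r. For LTBP1 they were ITGB3 (0.94), CTTN (0.92) and TSPAN9 (0.91), and for THBS1 ITGA2B (0.95), SEC14L5 (0.94) and ITGB3 (0.93). ITGA2B and ITGB3 encode the subunits of the platelet fibrinogen receptor. TGFBR1 ran most like RIT1 (0.93), COL4A3BP (0.92) and NAMPT (0.91), and TGFBR2 like RNF149 (0.88), PELI1 (0.87) and C20H16orf72 (0.86). SMAD3 ran most like TSHZ1, FBXO31 and NFRKB (0.88 to 0.89), TGFB1 like SLC9A3R1, CIC and RNF44 (0.88 to 0.89), and SKIL like ZNF654, ETNK1 and ABHD13. Values were lower for SMAD7 (MLLT6, 0.78; STIM1, 0.70; NFE2L1, 0.68), ENG (ECM1 and AP1B1, 0.74; ITGA2B, 0.72) and TGFBI (TNFRSF21, ARHGEF10L and NEURL1B).

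The rest of the pathway was read from 4 lists without the 10 genes, and the counts below stand beside 7.53%, 5.75% and 32.5% of all tested genes called at early, medium and late time points. Of 16 tested genes for ligands and latency 0 changed at early time points, 3 rose and 1 fell at medium time points, and 9 rose and 2 fell at late time points (median log2 fold change 0.74 beside -0.13 over all genes). The gelatinase MMP9, also a neutrophil marker, had a log2 fold change of 0.91 at medium and 2.25 at late time points (adjusted p = 3.52e-05 by edgeR), the activin subunit INHBA 0.75 and 1.72, the plasminogen activator PLAU 1.58 at late time points, and the latent binding protein LTBP3 -0.77 at medium time points. Of 13 receptors and co-receptors 0 changed at early and medium time points and 1 rose at late time points, FKBP1A (0.92), whose product binds type I receptors.

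Of 25 SMADs and SMAD regulators 2 rose at early time points, the phosphatase PPM1A (1.02) and the deubiquitinase USP15 (0.69), and 0 fell. At medium time points USP15 (0.60) alone rose. At late time points 3 rose and 4 fell, with USP15 (0.90) and ZFYVE16 (0.87) higher and ZFYVE9 (-0.89), an anchor of SMADs to the receptor, lower. Of 22 target genes 2 rose at early time points, among them the metalloproteinase inhibitor TIMP1 (0.72), and 0 changed at medium time points. At late time points 8 rose and 4 fell, with ID3 (-1.53) and ACTA2 (-1.31) lower, so the targets did not move in 1 direction. Of 15 markers of endothelium and fibroblasts 5 passed the filter on counts. On Day 3, when ENG rose, 3 of these 5 rose, among them CLDN5 (1.24). Their summed level had a median of 387 CPM in control and 538 CPM on Day 3. The sum was mostly PECAM1, whose median count over the libraries (2854.5) was far above that of each other tested marker. It therefore says little about the remaining markers, and CDH5, KDR and COL1A1 did not pass the filter. The part of these markers in the change of ENG was not tested.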

How the data were processed

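The authors sequenced whole blood RNA and, per the labels, trimmed reads with cutadapt 2.10, aligned them with STAR 2.7.6a to Mmul_10 and counted them with Subread 2.0.1. The deposited counts are whole reads per gene, not normalized, and the deposited log2 values of 16730 genes are scaled by the upper quartile of each sample. Each column was matched to a sample by its name (columns with no sample: 0).

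The main test was edgeR's quasi-likelihood F test (edgeR 4.0.16, R 4.3.3) on upper-quartile scaled libraries, blocked by animal (control and irradiated samples come from the same animal, which is the pairing) and adjusted by Benjamini-Hochberg over all 13751 genes tested. Draws of 1 animal within a window were added up before testing. The exceptions were the deposited log2 values, which were averaged, and the fit of all samples with the range, where each draw counted singly. A prior count of 2 was used for log2 CPM. GC content and exon length came from the RefSeq annotation of Mmul_10. Alternatives were TMM scaling, DESeq2 1.42.0, no filter on low counts, no replicate block, the deposited log2 values with limma 3.58.1, library range, the animals followed to Day 270, leaving out single animals or libraries, and GC correction. Unscheduled draws entered the window sums and the depth, and not the single days.

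The 10 genes, the pathway lists and the marker lists were chosen with earlier results of these data known. The genes named are the 10, at most 3 of the largest changes per pathway list and window, and the 3 genes most like each of the 10. A target gene picked by this rule is left unreported here, and marker genes such as PF4 were not analysed here. On simulated data with 200 of 13751 genes changed by a fold of 3, edgeR recovered 200 at early time points (0 false), 198 at late time points (11 false) and 161 on Day 270 (8 false). The precision of a count is limited by the depth of 2840219 to 23638161 reads per sample.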

Additional observations from a re-analysis of the deposited data

Results flagged for a closer look

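In groups of 4 to 10 samples of 1 dose and day, 8 of 60 pairs of a group and a gene had a sample far from the others (chance gives about 1 in 20 groups). The LD groups of Day 180, 210, 240 and 270 hold the same 5 animals, and B1503 supplies 4 of the 8, so these pairs are not independent. On Day 210, LD animal B1502 had 451 CPM of TGFBR1 where the other 4 had 181 to 216, and 559.5 CPM of TGFBR2 where the others had 339 to 361. LD animal B1503 had the highest ENG on Day 180 (10.5 CPM, others 1.95 to 2.20), on Day 210 (25.2 CPM, others 2.05 to 8.51) and on Day 270 (14.02 CPM, others 1.77 to 3.70), and the lowest SMAD3 on Day 240 (37.01 CPM, others 124.8 to 154.7). Animal B1003 had 540.1 CPM of THBS1 on Day 240 (others 115.7 to 208.9), and HD animal B2507 had 532 CPM of TGFBR1 on Day 90 (others 356 to 383). The change of TGFBR1 also differed between windows, as its late level exceeded its early level in a test of that difference by a log2 fold change of 0.84 in 16 animals. The change from control on Day 60 differed between the doses in a test of that difference in 21 animals, added after the values had been seen, with HD minus LD at 0.80 for TGFBI and -0.64 for SMAD3 on the log2 scale.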

How the results depend on the processing

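Of 75 counts of the 10 genes called under the alternatives, 69 were within 1.5 times the main count, and of 668 values of single genes 612 kept their direction and their side of the threshold. The medium count of 1 was 0 with limma on the deposited log2 values and 0 in libraries of the same range. The late count of 4 was 2 in the animals followed to Day 270, where TGFBR1 and SMAD3 were not called. The late against early count of 1 was 2 with DESeq2 and 3 with GC correction. On Day 180 to 270 the count of 7 in 40 tests ranged from 4 to 8 when 1 of the 6 animals was left out, and was 4 without animal B1503. Without the replicate block, 19 of 150 tests on single days were called in place of 23, with the calls of LTBP1 on Day 180 and 210, and of THBS1 and ENG on Day 210, lost. The dose difference on Day 60 gave 2 calls with the block and 0 without it (TGFBI 0.72, SMAD3 -0.59). The block left the counts of windows, sexes and the other dose tests as they were.

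Values that changed sign were not called in the main test or under the alternative named. With GC correction TGFB1 (0.0684), TGFBR1 (-0.12) and SKIL (-0.0252) at early time points, TGFBR2 at medium (0.0498), SMAD7 at late (0.0450) and TGFBI for late against early (0.0681) did so. TGFB1 at medium time points was -0.58 in libraries of the same range and -0.0780 with the range as a covariate. THBS1 at medium time points was -0.0641 without the block, -0.0536 with limma and -0.18 in the same range. TGFBR1 at early time points was -0.00950 without the block and -0.00882 in animals followed to Day 270. TGFBR2 at medium time points was 0.0110 with TMM, 0.0177 with DESeq2, 0.00232 with limma, 0.13 in the same range and 0.0874 with the covariate. TGFBI for late against early was 0.0225 with DESeq2 and 0.0310 without the block. The cause was not tested. Depth limits ENG most, with counts at or near 0 in some libraries.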

Other observations

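Of the 304 samples 8 were drawn on unscheduled days, and 7 of these came from animals with a control. SMAD3 was below the animal's own control in 6 of 7 of them and ranged from 62.8 to 130.7 CPM (median 99.2). LTBP1 (29.0 to 114.2 CPM), TGFBI (19.4 to 178 CPM), TGFBR1 (243 to 855 CPM) and TGFB1 (492 to 955 CPM) were each above control in 6 of 7. ENG ranged from 1.45 to 8.77 CPM and was above the animal's preceding sample in 7 of 8. These draws form no group of their own and were not tested.

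In the HD library of animal B2007 on Day 40, LTBP1 stood at 416 CPM and THBS1 at 2089 CPM, where the other Day 40 libraries had 11.1 to 114.3 and 99.6 to 695 CPM. SMAD3 (27.4 CPM), SMAD7 (10.4 CPM) and TGFBI (11.0 CPM) were below every other library of that day.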
